A study of Gossypium hirsutum with 89 samples.

Results

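The probe set GhiAffx.31991.1.A1_s_at, paired with the gene symbol GLU (LOC107932771 in the RefSeq annotation of Gossypium_hirsutum_v2.1), was followed through cotton fibre development. It is 1 of the 24132 probe sets on the Affymetrix Cotton Genome array and the only probe set paired with this gene. It was chosen from these same measurements because its late rise differed widely between genotypes. Its levels at 19 and 25 days post anthesis (dpa) are therefore given as a description, without a test. The levels at 6, 9 and 12 dpa are the base of that rise as measured here. Tests that use those days are thus not independent of the choice. The suffix s_at of its identifier marks a probe set that can bind more than 1 transcript, so copies of a gene in the 2 subgenomes of this allotetraploid may share its signal.

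RNA came from 5 genotypes of upland cotton, Gossypium hirsutum, that were sown in an open field in Lucknow, India, and grown under natural conditions. Fibre traits are classed by the submitters as superior in JKC 725 and JKC 777 and as inferior in JKC 703, JKC 737 and JKC 783. Flowers were tagged at anthesis and samples were harvested at 0, 6, 9, 12, 19 and 25 dpa. The 0 dpa sample was the whole ovule and the later samples were fibre alone, so the step from 0 to 6 dpa is also a change of tissue. Each genotype and day had 3 biological replicates, except JKC 783 at 25 dpa with 2, which gave 89 arrays. The labels do not say how many plants or bolls made up a replicate. In such bulk samples, fewer cells of a type and less RNA per cell cannot be told apart.

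A cotton fibre is a single epidermal cell of the seed coat that first elongates and then, after a transition stage, lays down a thick secondary wall of almost pure cellulose, a beta-1,4-glucan. Cellulose synthases such as CelA1 make this polymer, sucrose synthases supply its sugar nucleotide, and the chitinase-like protein CTL1 and fasciclin-like arabinogalactan proteins (FLA) are known as companions of secondary wall formation. Callose, a beta-1,3-glucan, is also deposited at and removed from fibre walls and plasmodesmata, in part by glucanases. The annotation used here gives GLU no more than its symbol, so no enzyme activity is assigned to it below.

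The values are MAS5 signals, a measure of the brightness of a probe set on a linear scale, which the authors scaled to a like mean on every array. Array medians lay between 59.9 and 119.8, and the brightest signal in the table was 40713. Replicates of a group correlated with a median Pearson r of 0.975 over probe sets, and the lowest was 0.8998. Replicate 2 of JKC 725 at 12 dpa had the lowest mean r with the other replicates of its group, 0.911. Signals of 6 probe sets of fibre genes (E6, H6L, LTP3, EXPA1 and AnnGh1) summed to between 16086 and 23444 in the ovule groups and to between 45082 and 97801 in the fibre groups. Not every member followed this sum. EXPA1 at 25 dpa was at 392 in JKC 725 and 315 in JKC 703, against 315 and 425 in their ovules. The dimmer LTP3 probe set lay between 47.9 and 433 at 25 dpa, against 471 to 1366 in ovules. AnnGh1 alone gave 7382 to 13147 in ovules. The number of arrays limits the precision.

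GLU was already well above the array medians in ovules at 0 dpa. JKC 725 gave 2360.1, 2332 and 2198 in its 3 replicates. JKC 783 gave 1659, 1574 and 1631, and JKC 703 gave 1632, 1456 and 1444. These 3 genotypes were tight, and the lowest array of JKC 725 lay above every array of the others. JKC 777 gave 1205, 1514 and 1024, and JKC 737 gave 1248, 436 and 573. JKC 737 was the lowest on average, with 1 array that overlapped JKC 777. The means ran from 2297 ± 86.5 (SD, n = 3) in JKC 725 to 752 ± 435 (SD, n = 3) in JKC 737, a ratio of 3.05.

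On the log2 scale, with 4.38 added to each signal, the genotype means at 0 dpa spanned 1.75. With the spread pooled over all 30 groups of genotype and day, this did not pass the test among the genotypes (limma moderated F, adjusted p = 0.129), where 28.6% of the 18659 tested probe sets did. A call needed an adjusted p under 0.05 and a span of at least 1. The same contrast fitted on the 0 dpa arrays alone passed, with an adjusted p of 0.000394 by limma. The share of all probe sets that passed in that fit was not counted, so this pass has no background beside it. That fit was chosen after seeing the data. The SD of log2 values within a genotype was at most 0.78 at 0 dpa and reached 2.46 in JKC 777 at 25 dpa, which enters the pooled spread.

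In fibre at 6 dpa the order of the genotypes was another. At 6 dpa JKC 783 gave 1061, 1018 and 1203, above every array of the other genotypes. JKC 777 gave 762, 719 and 737, and JKC 737 gave 563, 542 and 479. JKC 725, the highest genotype in ovules, was the lowest in 6 dpa fibre with 567, 403 and 237. JKC 703 gave 738, 428 and 265. These last 2 genotypes overlapped each other and had wider replicates than the rest. The span of 1.52 at 6 dpa was not called (limma, adjusted p = 0.172, against 28.1% of probe sets called). It was called in the fit on the 6 dpa arrays alone (limma, adjusted p = 0.00372). For that fit, too, the share of all probe sets called was not counted.

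At 9 dpa JKC 725 gave 143, 292 and 95.1, and JKC 703 gave 152, 291 and 243. JKC 777 gave 392, 532 and 863, and JKC 783 gave 565, 440.4 and 777. The lowest arrays of JKC 777 and JKC 783 lay above the highest of JKC 725 and JKC 703. JKC 737, with 534, 351 and 199, overlapped both pairs. The 9 dpa levels differed among genotypes (span 1.84, limma adjusted p = 0.029), at a day when 25.8% of probe sets were called. JKC 783 was 3.58-fold above JKC 725 on the log2 scale. GLU was chosen for its late rise, and the 9 dpa level is part of the base of that rise. The call is thus not independent of the choice. This call was lost without replicate 1 of every group (limma adjusted p = 0.258) or without replicate 3 (0.169). It was also lost without any 1 of these single 9 dpa arrays: replicate 1 (limma adjusted p = 0.0734) or 3 (0.121) of JKC 725, replicate 1 of JKC 703 (0.0509), replicate 3 of JKC 777 (0.0652) or replicate 3 of JKC 783 (0.0627).

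By 12 dpa the 5 genotypes lay together. JKC 725 gave 387, 67.5 and 417, JKC 703 gave 352, 487 and 208, and JKC 777 gave 264, 131 and 236. JKC 783 gave 479.7, 250.03 and 214, and JKC 737 gave 210.3, 339 and 262. Every pair of genotypes overlapped, and the highest mean was 1.66 times the lowest. The span of 0.70 did not pass (limma, adjusted p = 0.829, with 30.4% of probe sets called).

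**Figure D1:**
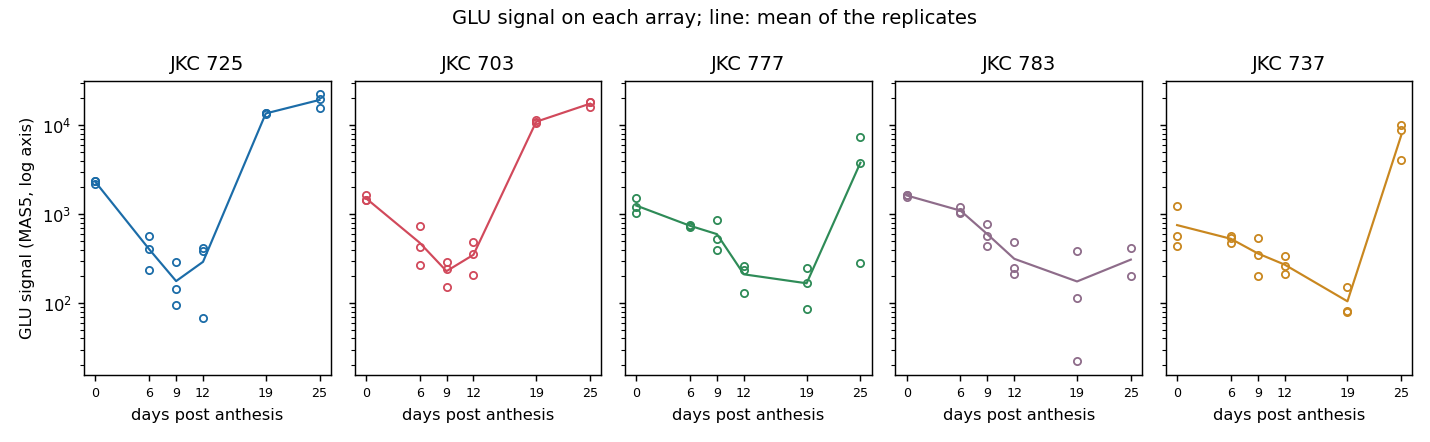
GLU signal (MAS5, log axis) against days post anthesis, with a point for each array and a line through the mean of each genotype. All 5 genotypes lie between 67.5 and 487 at 12 dpa, and at 19 dpa the lowest array of JKC 725 and JKC 703 is at 10505 and the highest of the other 3 at 389.

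The step from ovule to 6 dpa fibre was a fall. Averaged over the 5 genotypes, GLU fell by 1.21 ± 0.28 (SE) on the log2 scale, 2.31-fold (95% interval -1.76 to -0.65, limma adjusted p = 8.93e-05). Of all probe sets, 14.8% were called lower and 8.51% higher in this averaged step, whose median over all probe sets was -0.28. Relative to that median GLU was at -0.93, and after median centring its change of -0.90 fell short of the minimum of 1.

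Within genotypes the fall from 0 to 6 dpa was called in JKC 725 (-2.59 ± 0.62 (SE), 6.01-fold, limma adjusted p = 0.000255), where 22.2% of probe sets were called lower. It was also called in JKC 703 (-1.77 ± 0.62 (SE), 3.42-fold, limma adjusted p = 0.0121, with 18.6% called lower). The JKC 703 call was lost without replicate 3 at 6 dpa (limma adjusted p = 0.0849). The estimates were -0.73 in JKC 777 (limma adjusted p = 0.317), -0.57 in JKC 783 (0.47) and -0.36 in JKC 737 (0.669), where 19.8, 12.9 and 10.3% of probe sets were called lower. A test of whether the step itself differed among genotypes did not pass with the spread of all groups (limma, adjusted p = 0.132), where 34.4% of probe sets passed. It passed with the arrays of 0 and 6 dpa alone (limma, adjusted p = 0.00055), a fit chosen after seeing the data in which 48.5% of probe sets passed.

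Between 6 and 9 dpa the averaged change was -0.83 ± 0.28 (SE), with a limma adjusted p of 0.0154 but a size under the minimum of 1, and 0.75% of probe sets were called lower. The 5 genotype estimates lay between -1.23 in JKC 725 and -0.39 in JKC 777, all in the same direction. Between 9 and 12 dpa the averaged change was -0.34 ± 0.28 (SE) (limma, adjusted p = 0.354, with 1.19% called lower). Here JKC 725 and JKC 703 were at 0.48 and 0.57, and JKC 777, JKC 783 and JKC 737 at -1.47, -0.96 and -0.33. Neither step differed among genotypes by limma (adjusted p = 0.935 and 0.256), where 19.6 and 17% of probe sets did.

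**Figure D2:**
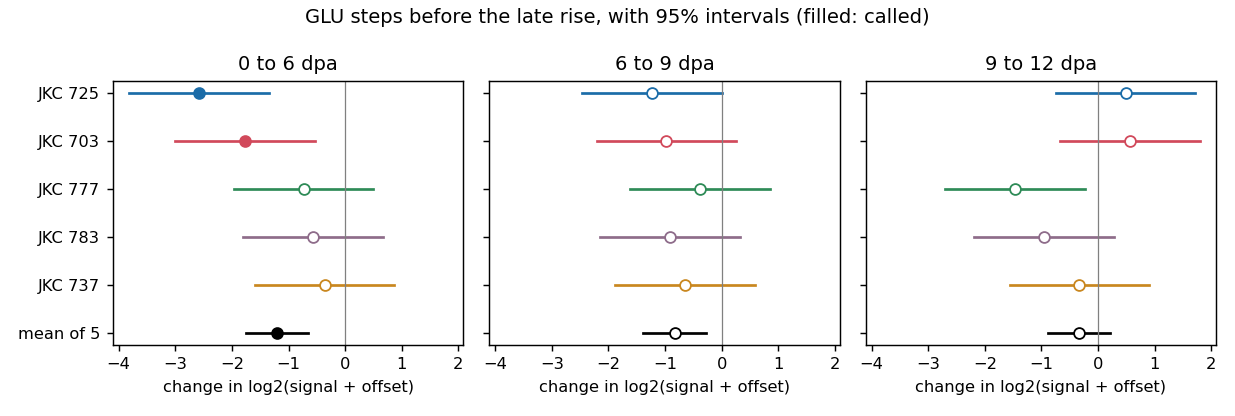
Change in GLU (log2 of the later over the earlier day) for the steps 0 to 6, 6 to 9 and 9 to 12 dpa in each genotype and averaged over the 5, with bars for the 95% interval. The 0 to 6 dpa change is lowest in JKC 725 at -2.59 and nearest to 0 in JKC 737 at -0.36.

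After 12 dpa the genotypes separated, on the measure by which GLU was chosen. At 19 dpa JKC 725 gave 13366, 13593 and 13672, and JKC 703 gave 11332, 10939.8 and 10505. These are among the tightest replicates in the course, and the superior JKC 725 and the inferior JKC 703 stood side by side. JKC 777 gave 85.6, 169 and 245, JKC 783 gave 114, 22.1 and 389, and JKC 737 gave 153, 81.2 and 80.0. The last 3 genotypes overlapped one another, and JKC 737 was at its own lowest group mean, 104.6 ± 41.7 (SD, n = 3). From 12 to 19 dpa the log2 difference was 5.89 in JKC 725 and 5.03 in JKC 703, where the mean signals were 46.6 and 31.3 times higher. It was -0.39 in JKC 777, -1.48 in JKC 783 and -1.37 in JKC 737. Without replicate 2 at 12 dpa the JKC 725 difference was 5.06, and without replicate 1 of every group the JKC 777 difference was 0.21. The JKC 783 difference was -0.47 without replicate 2 at 19 dpa (the array at 22.1), and -2.42 without replicate 3 at 19 dpa.

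At 25 dpa JKC 725 gave 22179, 19721 and 15752, and JKC 703 gave 18055, 18122 and 16118. The 2 genotypes overlapped at this day, which they did not at 19 dpa. JKC 737 gave 4093, 10107 and 8861, and its mean of 7687 ± 3175 (SD, n = 3) was 73.5 times that at 19 dpa. JKC 777 gave 3737, 7329 and 285, a mean of 3784 ± 3522 (SD, n = 3). JKC 783 gave 415 and 201, which overlapped its own 19 dpa arrays. By their means, levels at 25 dpa ran in the order JKC 725, JKC 703, JKC 737, JKC 777, JKC 783, with the superior and inferior classes interleaved. JKC 725 and JKC 703, JKC 737 and JKC 777, and JKC 777 and JKC 783 overlapped in their arrays, and the first 2 of these pairs differed by less than the larger SD on the log2 scale.

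From 19 to 25 dpa the log2 differences in JKC 725 and JKC 703 were 0.49 and 0.67, and after quantile normalization the one in JKC 725 was -0.05. The difference of 6.10 in JKC 737 was 6.80 without replicate 1 of every group, and that of 1.45 in JKC 783 was 0.45 without replicate 2 at 19 dpa and 2.39 without replicate 3 at 19 dpa. The difference between the mean of 19 and 25 dpa and the mean of 6, 9 and 12 dpa, on the log2 scale, was 6.05 ± 0.40 (SE) in JKC 725 and 5.42 ± 0.40 in JKC 703. It was 1.24 ± 0.40 in JKC 737, 0.34 ± 0.40 in JKC 777 and -1.70 ± 0.43 in JKC 783. In JKC 777 this value was -0.29 without replicate 2 of every group and 1.03 without replicate 3 at 25 dpa, so its direction rests on single arrays. In JKC 783 it was -1.06 without replicate 2. The highest genotype mean was 129 times the lowest at 19 dpa and 62.4 times at 25 dpa, against 1.66 times at 12 dpa.

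Ordered by the mean of log2 signals, the 30 groups formed few clear steps. JKC 725 and JKC 703 at 25 dpa were the highest, followed by the same genotypes at 19 dpa, then JKC 737 at 25 dpa. Below these came ovules of JKC 725, then JKC 777 at 25 dpa, then ovules of JKC 783, JKC 703 and JKC 777. Of the 29 gaps between neighbours in this order, 6 were larger than the larger log2 SD of the 2 groups and 23 were within it. The top of the order held 1 such gap between JKC 703 at 25 dpa and JKC 725 at 19 dpa, and another between JKC 725 and JKC 703 at 19 dpa. The next came after JKC 737 at 25 dpa, and the remaining 3 followed the ovules of JKC 783, the ovules of JKC 703 and JKC 783 at 6 dpa.

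The wide spread of JKC 777 at 25 dpa came from replicate 3. On the log2 scale its GLU value minus the mean of replicates 1 and 2 was -4.18, the 3rd lowest such difference among 18659 probe sets, whose median difference was 0.12. FLA7 differed by -3.98, CTL1 by -2.47, the kinesin KCH1 by -1.93, FLA15 by -1.71 and Rac9 by -1.55. The 2 probe sets of CelA1 differed by -0.89 and 0.33, those of FLA6 by -0.29 and -0.26, and the 3 of nst3 by -0.69, -0.33 and 0.08. KT at -0.20, MYB5 at -0.04 and gAPX at 0.01 were near 0. For FLA7 the 3 replicates gave 3353, 5563 and 269, and for CTL1 10583, 12599 and 2087. The array as a whole correlated with replicates 1 and 2 at Pearson r of 0.961 and 0.955 over probe sets, against 0.972 between those 2. Without it, the 19 to 25 dpa difference of GLU in JKC 777 was 5.06 in place of 3.66, and without replicate 2 at 25 dpa it was 2.72.

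**Figure D3:**
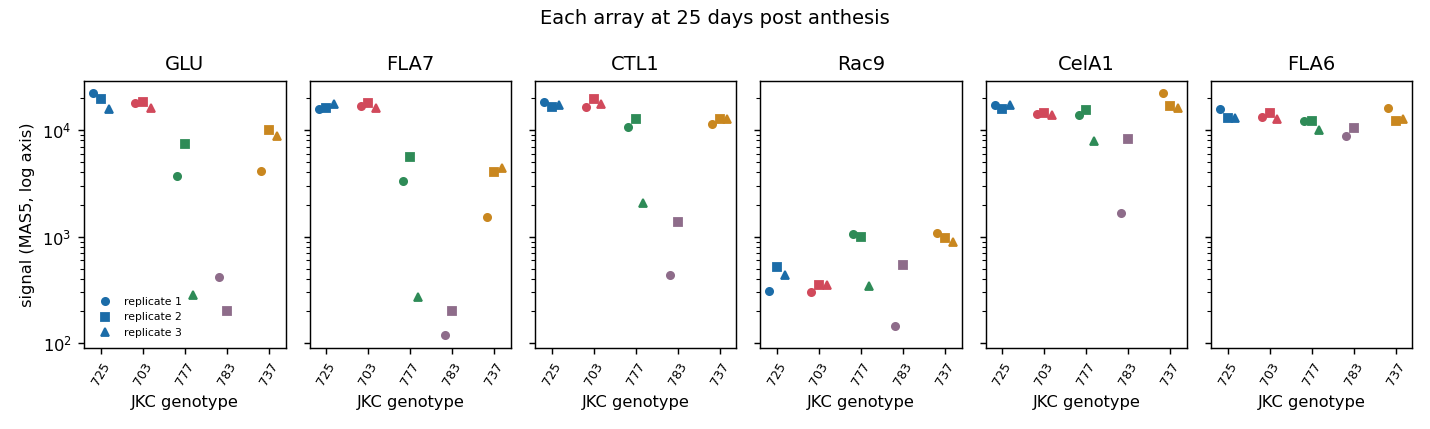
Signals (MAS5, log axis) of GLU beside genes of the late step on every array at 25 dpa. In JKC 777 replicate 3, GLU at 285 and FLA7 at 269 lie near the JKC 783 arrays. The plotted FLA6 probe set stays near the other 2 replicates.

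By the share of each gene's own highest group mean, GLU and FLA7 were late beside FLA6, CelA1 and CTL1. GLU was chosen for its late rise, so its low share at 12 dpa follows in part from that choice. In JKC 703 at 12 dpa, FLA6 had reached 72.0% of its highest mean, CelA1 33.3% and CTL1 22.9%, while GLU was at 1.82% and FLA7 at 1.74%. In JKC 725 at 12 dpa the shares were 49.8% for FLA6, 10.5% for CelA1, 10.02% for CTL1, 1.51% for GLU and 0.636% for FLA7. FLA15, outside this comparison, was at 2.64% in JKC 725 and 4.61% in JKC 703 at 12 dpa. The means in JKC 783 at 25 dpa ran in the same order. FLA6 was at 68.9%, CelA1 at 27.1%, CTL1 at 5.04%, GLU at 1.60% and FLA7 at 0.944%. This group had only 2 arrays, which lay far apart for CelA1 (1652 and 8258) and CTL1 (436 and 1371). FLA6 and CelA1 have 2 probe sets each. CelA1 stands here for the one with the higher maximum (18309) and FLA6 for the one with the lower (13917), and the other FLA6 probe set gave 65.7, 40.3 and 68.3% in these 3 groups.

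Over the fibre days, GLU and FLA7 first reached 10% of their highest group mean at 19 dpa in JKC 725 and JKC 703. In JKC 777 and JKC 737 they did so at 25 dpa, and in JKC 783 they did not. Ovules are left out of this count, and those of JKC 725 had GLU at 11.95%. CTL1, CelA1 and Rac9, a small GTPase, reached 10% at 12 dpa in JKC 725 and JKC 703. In JKC 725 they were close to this threshold, at 10.02, 10.5 and 11.2%. The replicates there were wide, with means of 1798 ± 1089 (SD) for CTL1 and 1929 ± 1210 (SD) for CelA1. At 25 dpa JKC 737 had CelA1 at 100% and GLU at 40%, and JKC 777 had CelA1 at 67.3% and GLU at 19.7%. The other CelA1 probe set ran differently and was already at 74.7% in JKC 737 at 19 dpa. These percentages are descriptions without a test, and bright probe sets can saturate, which was not tested.

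**Figure D4:**
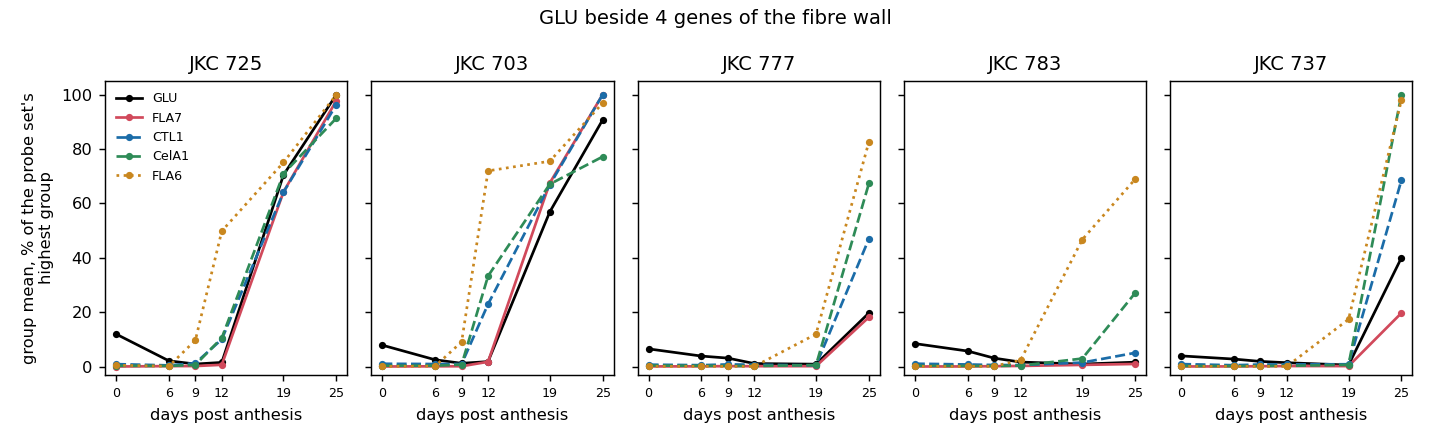
Group means of GLU, FLA7, CTL1, CelA1 and FLA6 as a percentage of each gene's own highest group mean, by day and genotype. GLU and FLA7 stay under 2% at 12 dpa in JKC 725 and JKC 703, where FLA6 is at 49.8 and 72.0%.

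Genes of beta-glucan metabolism were taken from a list of names, and GLU was not counted among them. It matched 8 probe sets of 6 genes: CelA1 (2 probe sets) and CslD1, a cellulose synthase-like gene, CTL1, and the sucrose synthases susC, SusA1 (2 probe sets) and Sus1. No probe set with a readable glucanase or callose synthase name matched. From 12 to 19 dpa, 3 of the 8 rose and 0 fell in JKC 725, where 10.7% of all probe sets rose and 9% fell. In JKC 703, 3 rose and 1 fell, against 18.8% and 10.2% of all. In JKC 777, JKC 783 and JKC 737, 2 rose and 0 fell in each, against 3.33, 3.85 and 4.14% of all probe sets that rose and 5.69, 4.66 and 4.06% that fell. At an unadjusted p under 0.05, 1 member fell in JKC 725, JKC 777, JKC 783 and JKC 737 each, and 2 in JKC 703. In JKC 777, JKC 783 and JKC 737 this was Sus1, at -0.97, -0.55 and -0.64 (limma adjusted p = 1.24e-07, 0.00199 and 0.000297). In JKC 725 and JKC 703 Sus1 was at 0.69 and 0.40 (limma adjusted p = 2.87e-05 and 0.0107). Each of these changes was under the minimum size of 1 and so was not called. So was susC in JKC 703, at -0.69 (limma adjusted p = 0.00862). The list's median change ran from 0.49 in JKC 777 to 1.01 in JKC 737, and the median over all probe sets from -0.09 to 0.21.

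In JKC 725 and JKC 703, where GLU was high at 19 dpa, CTL1 rose by 2.90 and 1.60 on the log2 scale. There CelA1 (the probe set with the higher maximum) rose by 3.07 and 1.05, and 1 SusA1 probe set by 1.62 and 2.39. The other SusA1 probe set was at 0.77 and 0.79 and was not called (limma adjusted p = 0.217 and 0.173). The other CelA1 probe set fell by 2.47 in JKC 703 (limma, adjusted p = 0.00136). In JKC 725 that probe set was at -1.56 and was not called (limma adjusted p = 0.0549). It was the 1 member there that fell at an unadjusted p under 0.05. In the other 3 genotypes the members called were CelA1, with 1.19, 2.83 and 1.18 in JKC 777, JKC 783 and JKC 737, and susC, with 2.999, 5.03 and 3.15. The CelA1 calls in JKC 777 and JKC 737 were at low signals, with means from 35.1 to 97.4 and from 47.6 to 114. Their limma adjusted p was 0.0386 and 0.0484, and array medians lay between 59.9 and 119.8. In JKC 783 the CelA1 means were 62.8 and 536 (limma adjusted p = 9.82e-07). GLU in those genotypes had differences below 0 over the same step.

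From 19 to 25 dpa none of the 8 was called in JKC 725 or JKC 703 by limma, where 1.75 and 1.09% of all probe sets rose and 4.81 and 4.63% fell. At an unadjusted p under 0.05, 0 rose and 1 fell in JKC 725, and 0 rose and 0 fell in JKC 703. In JKC 777 and JKC 737, 3 rose and 0 fell in each, against 5.77 and 5% of all that rose and 5.81 and 12.9% that fell. These were CelA1 (7.05 and 7.27), CTL1 (6.28 and 6.32) and susC (1.22 and 1.32). In JKC 783, 2 rose and 0 fell, against 1.83% that rose and 2.41% that fell. CelA1 rose there by 3.05 and CTL1 by 1.96, the step in which GLU differed by 1.45 with overlapping arrays. The list's median change in this step ran from -0.30 in JKC 703 to 0.59 in JKC 777, and that over all probe sets from -0.20 in JKC 737 to 0.02 in JKC 777.

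Likeness to GLU was measured by Pearson's r between log2 group means over the 30 groups, which share arrays and their scaling. Over 18659 probe sets, 25 had an r of 0.9 or more, 28 had -0.9 or less, and the median was 0.10. Among probe sets with a readable gene name, the most alike was MAT, an S-adenosylmethionine synthetase, at 0.895, with group means from 1022 to 15469.9. Next came KT at 0.85, the kinesins KCH1 at 0.82 and KIS13A1 at 0.79, FLA15 at 0.77 and CTL1 at 0.73. The list of 10 closed with gAPX, a glyoxysomal ascorbate peroxidase, and vicB_At, a vicilin, both at 0.71, and FLA7 and MYB5 at 0.69. Spearman's rho ordered them otherwise, with MAT at 0.78, MYB5 at 0.76, gAPX at 0.61, KCH1 at 0.60, FLA15 at 0.56 and KT at 0.53. It was 0.48 for KIS13A1, 0.41 for CTL1, 0.40 for vicB_At and 0.13 for FLA7. Probe sets without a gene name came closer, the first 2 at 0.96 and 0.95.

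Of the 6 genes of the late step, CTL1 and FLA7 were among these 10, and the other 4 had a lower r, with CelA1 at 0.61 and -0.31 for its 2 probe sets and Rac9 at 0.50. The NAC transcription factor nst3 was at 0.40, 0.26 and 0.23, and FLA6 at 0.31 and 0.28. Over the 25 fibre groups, which leave out the ovules, FLA15 was at 0.92, FLA7 at 0.86 and CTL1 at 0.81. The opposite course was held by CMDR1 at -0.93, the expansin genes EXPA11A at -0.86 and EXPA3D at -0.84, the transcription factor myb109 at -0.86 and the glutathione S-transferase gene GST at -0.85. EXPA11A had its highest mean, 2387, in JKC 725 at 6 dpa, and CMDR1 its highest, 3682, in JKC 725 at 9 dpa.

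**Figure D5:**
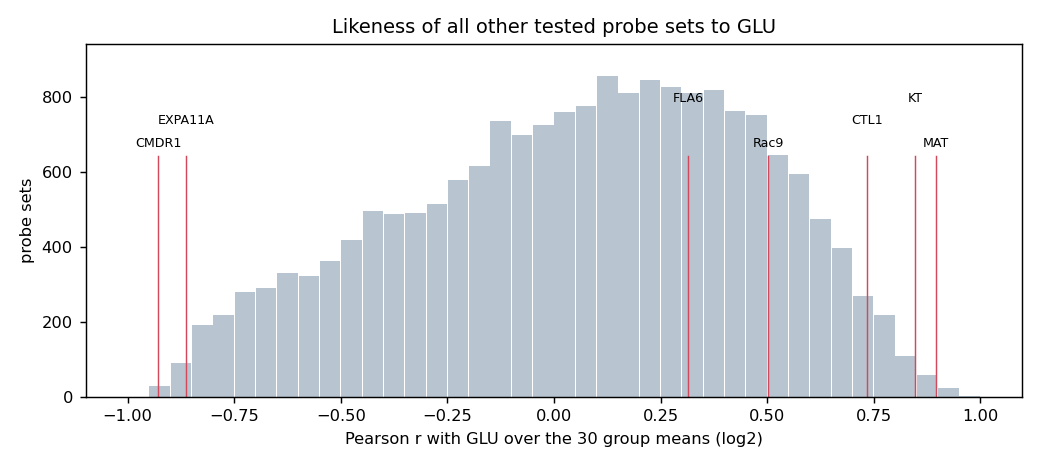
Number of probe sets (y axis) by Pearson's r with GLU over the 30 group means (x axis), with the named genes marked. The distribution is centred near 0.10, and MAT at 0.895 and CMDR1 at -0.93 mark the named extremes.

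Seed genes were not uniform at the days when GLU was high. In JKC 725 the vicilin vicB_At gave 437, 3711 and 205 at 19 dpa and 1686, 999.5 and 0.462 at 25 dpa. Replicate 3 at 25 dpa, with vicB_At at 0.462, had GLU at 15752. In JKC 703 vicB_At gave 48.6, 47.3 and 7.72 at 19 dpa and 32.3, 44.5 and 197 at 25 dpa, and the means of the other 3 genotypes lay between 1.74 and 16.5. The 6 probe sets of the seed list summed to 9229 and 12251 in JKC 725 at 19 and 25 dpa and to 11705 and 17108 in JKC 703, against 2274 to 6302 in the others. Most of these sums in JKC 725 and JKC 703 was Lea5-D, at 7410.02 and 10637 in JKC 725 and 11380.5 and 16696 in JKC 703. Lea14-A lay the other way at 19 dpa, with means of 66.4 in JKC 725 and 176 in JKC 703 against 1381, 986 and 1141 in JKC 777, JKC 783 and JKC 737. So did 1 of the 2 LEGB probe sets, with 49.5 and 95.6 against 146, 119.6 and 152. In JKC 737 at 25 dpa, GLU was at 7687 with vicB_At at 7.03 and LegA at 4.83, beside 4.38 for the 10th percentile of the table. The LEGB probe sets were at 8.81 and 78.5 there, with 3226 for Lea5-D and 62.3 for Lea14-A. The part of seed RNA in the levels of JKC 725 and JKC 703 was not tested.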

How the data were processed

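The authors deposited 1 MAS5 intensity per probe set and array on a linear scale; MAS5 is named in the submitters' processing notes, and its version is not given in the sources used here. The deposited intensities had a 2% trimmed mean of 499.9 on every array. Intensities were converted to log2(signal + 4.38), the offset being the 10th percentile of the table. Left out were 103 control probe sets and 5370 whose log2 mean reached the 40th percentile (a signal of 40.4) in no group, which left 18659. Means of the 30 groups were fitted to all 89 arrays with limma 3.58.1 (lmFit, eBayes with trend) in R 4.3.3, with Benjamini-Hochberg adjustment over 18659. Figures were drawn with matplotlib 3.10.9. Fold changes on this scale understate changes of low signals. The procedure was tested on simulated data.

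GLU, the gene lists and the tests were chosen with earlier results of these data known. The genes named are GLU, the beta-glucan list, the 10 named probe sets most like GLU and the 5 most opposite, the 2 most alike without a name, 6 genes of the late step and the tissue markers. Gene names came from the platform annotation updated through RefSeq, which gave 697 probe sets 1 gene, 46 several and 23389 none, and 324 had a readable name. Alternatives changed the offset, scaling, filter, variance trend, replicates, single arrays and the arrays fitted.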

Additional observations from a re-analysis of the deposited data

How the results depend on the processing

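Of 1322 values recomputed under alternatives, 1215 kept their side of the threshold or stayed within the spread between replicates or near the main count, and 5 tested steps reversed. The span among genotypes at 0 dpa was called after quantile normalization (2.08) and in the fit of that day alone (1.75), as was 6 dpa in its own day (1.52); single-day fits and the likeness without JKC 725 were chosen after seeing the data. The fall from 0 to 6 dpa was -0.90 after median centring, under the minimum change. With a replicate or array left out, the 9 dpa span ran from 1.27 to 2.46 and was lost in the settings given above. Uncalled early steps reversed with arrays left out: 0 to 6 dpa in JKC 737 ran from -0.70 to 0.074, and 9 to 12 dpa from -0.70 to 0.17 in JKC 737 and from -0.31 to 1.75 in JKC 725. Of 283 untested late differences of GLU, 5 changed sign: with arrays left out, 12 to 19 dpa in JKC 777 (-0.76 to 0.21) and its mean late rise (-0.29 to 1.03), and after quantile normalization 19 to 25 dpa in JKC 725 (-0.05). From 12 to 19 dpa the beta-glucan list had 1 call lower, counted over its probe sets in all 5 genotypes together. This count of calls became 2 with the larger offset, 3 after quantile normalization or median centring, and 1 to 2 with arrays left out. The 25 probe sets at r of 0.9 or more became 72 over fibre groups, 13 by Spearman, 16 without JKC 725 and 15 to 27 with arrays left out. The 28 at -0.9 or less became 103, 15, 8 and 10 to 31 in the same settings, 18 after quantile normalization and 9 after median centring. The cause was not tested. Deviations of same-numbered replicates had a mean r of 0.00217 (from -0.432 to 0.375 over 1276 pairs), with 9.17% of the pairs over 0.1. Such a mean cannot show whether smaller sets of arrays deviated together. By number, 35 of 89 arrays correlated best with their own. With the replicate number as a block, the 0 to 6 dpa fall stayed at -1.21 (limma, adjusted p = 9.5e-05) and the 9 dpa call had an adjusted p of 0.0299.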

Other observations

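Over the 5 fibre days, 42 of the 18659 probe sets (0.225%) first reached 10% of their own highest level on the same day as GLU in 4 genotypes and, like GLU, not at all in JKC 783. GLU is counted among them, and the only ones with a readable name were GLU and FLA7. Only 300 of the 18659 had a readable name. KT had the same days except in JKC 703, where it was just over the threshold at 12 dpa with 11.4%. The count of 42 was chosen after values were seen. A start at 19 dpa in both JKC 725 and JKC 703 was shared by 148 probe sets.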
